A study of Mus musculus with 4 samples.

Results

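The core circadian clock genes were compared between aged and young mammary fat pad (MFP) by RNA sequencing. The 10 genes are a list of names with a known place in the clock, and all 10 were found among the 55487 genes of the deposited count table. They are the transcriptional activator Arntl (also called Bmal1), the repressors Per1, Per2, Per3, Cry1 and Cry2, the nuclear receptors Nr1d1 and Nr1d2 (REV-ERB alpha and beta), and the PAR bZIP transcription factors Dbp and Tef. Whole MFP tissue came from female C57BL/6J mice with no treatment named, aged (14 months, 2 samples, replicate 1 and replicate 2) or young (8 weeks, 2 samples, replicate 1 and replicate 2). The labels call the samples biological replicates, without saying whether a sample is 1 mouse or a pool. The study grew melanoma cells in this adipocyte-rich tissue at both ages. No cell type was isolated for these libraries, so in these bulk libraries fewer cells of a type and less RNA per cell cannot be told apart.

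The clock is a loop of transcription with a period of about a day. ARNTL pairs with CLOCK or NPAS2, binds E-box elements and activates the Per, Cry, Nr1d and Dbp genes. PER and CRY proteins then repress that pair. REV-ERB proteins act on RORE elements, where they repress Arntl against the activating ROR proteins, so that Arntl RNA peaks at nearly the opposite time of day from Nr1d1, Dbp and Per RNA. DBP and TEF act on D-box elements, which drive Per genes among others. Adipose tissue runs such a clock, and the level of each of these RNAs at collection depends on the hour. The sources used here give a light and dark cycle for the animal house but no hour of collection for any sample, so the age of a mouse and its hour of collection cannot be told apart.

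Promoter sequence places these elements at the start of several of the genes. The windows run from 250 bases before to 50 bases after an annotated start (RefSeq, GRCm38.p6), and 9 of the 10 genes, all but Per2, matched the table with 12 windows. Searched on both strands were the E-box CACGTG, the related CACGTT, the D-box TTANGTAA and the RORE core TAGGTCA, which do not overlap each other in the windows shown. The E-box stood in 4 of the 12 windows, from 3 of the 9 genes (Per1, Cry1 and Tef), and in 7.15% of all 32851 windows. CACGTT stood in 3 of the 12 windows (Cry1, Cry2 and Nr1d1) and in 4.68% of all windows. The D-box stood in 1 of the 12 (Per3, 2.32% of all) and the RORE core in 1 (Arntl, 2.61% of all). A window without a match says only that these letters are not in it. The windows below are those of Arntl, whose RNA was lower in aged MFP, and of 5 genes of the repressing and D-box arms. Matches are in capitals, on either strand. Arntl, Per1 and Tef had 2 windows each, of which 1 is shown. The windows of Arntl and Per1 not shown held no match, and that of Tef held an E-box.
Arntl: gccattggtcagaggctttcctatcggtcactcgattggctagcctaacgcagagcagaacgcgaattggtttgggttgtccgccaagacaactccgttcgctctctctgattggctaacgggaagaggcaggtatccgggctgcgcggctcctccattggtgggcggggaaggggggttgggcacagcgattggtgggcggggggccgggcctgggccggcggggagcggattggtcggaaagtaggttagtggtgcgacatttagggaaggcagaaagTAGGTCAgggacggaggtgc
Per1: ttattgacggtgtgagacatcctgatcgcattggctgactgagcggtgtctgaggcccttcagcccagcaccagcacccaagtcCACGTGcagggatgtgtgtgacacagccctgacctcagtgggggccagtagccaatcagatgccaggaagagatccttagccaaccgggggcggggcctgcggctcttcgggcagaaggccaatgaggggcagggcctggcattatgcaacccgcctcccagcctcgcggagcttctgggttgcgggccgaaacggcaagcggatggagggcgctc
Per3: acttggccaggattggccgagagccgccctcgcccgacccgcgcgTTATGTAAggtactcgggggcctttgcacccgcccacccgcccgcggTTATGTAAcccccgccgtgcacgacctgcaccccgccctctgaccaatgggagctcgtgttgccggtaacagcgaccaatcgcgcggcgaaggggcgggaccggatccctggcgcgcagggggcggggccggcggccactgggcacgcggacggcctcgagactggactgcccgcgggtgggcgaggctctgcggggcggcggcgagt
Cry1: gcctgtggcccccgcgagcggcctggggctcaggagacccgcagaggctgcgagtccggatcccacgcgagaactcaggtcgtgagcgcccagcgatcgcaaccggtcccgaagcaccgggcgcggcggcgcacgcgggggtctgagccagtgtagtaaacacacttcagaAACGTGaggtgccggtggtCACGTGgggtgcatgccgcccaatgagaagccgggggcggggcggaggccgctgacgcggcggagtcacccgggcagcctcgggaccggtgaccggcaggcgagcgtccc
Nr1d1: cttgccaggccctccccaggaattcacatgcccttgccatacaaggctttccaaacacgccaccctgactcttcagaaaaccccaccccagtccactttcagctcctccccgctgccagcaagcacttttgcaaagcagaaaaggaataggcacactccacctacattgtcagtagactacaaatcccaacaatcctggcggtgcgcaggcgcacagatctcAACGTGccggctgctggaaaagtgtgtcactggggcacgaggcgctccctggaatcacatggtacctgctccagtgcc
Tef: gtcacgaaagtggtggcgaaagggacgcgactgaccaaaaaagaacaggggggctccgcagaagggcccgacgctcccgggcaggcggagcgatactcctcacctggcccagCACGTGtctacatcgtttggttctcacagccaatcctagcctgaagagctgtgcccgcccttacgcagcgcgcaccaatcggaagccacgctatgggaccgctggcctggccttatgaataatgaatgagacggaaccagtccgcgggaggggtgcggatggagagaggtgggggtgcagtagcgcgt
The Arntl window lies at chr7:113207261-113207560 on the plus strand, and its RORE core begins at position 31, counting the start as 1 and the base before it as -1. The window of Per1 (chr11:69098699-69098998, plus strand) has an E-box at -166, that of Tef (chr15:81811164-81811463, plus strand) one at -138, and that of Cry1 (chr10:85185005-85185304, minus strand) one at -60, with a CACGTT match at -79. In the Per3 window (chr4:151044616-151044915, minus strand) the D-boxes begin at -205 and -158. The CACGTT match of Nr1d1 (chr11:98775328-98775627, minus strand), printed as its reverse complement, begins at -28, and that of Cry1 is printed the same way.

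The libraries held between 68803304 and 98402403 counts of reads on genes, and each clock gene had at least 478 counts in each library. Levels are given as CPM, the count divided by the TMM-scaled library total in units of 1e6 counts. The ages were compared over 22485 genes with the quasi-likelihood test of edgeR and Benjamini-Hochberg adjustment. At an adjusted p under 0.05 it called 0 of these genes (0%), so 0 of the 10 clock genes. The smallest adjusted p was 0.36. At an unadjusted p under 0.05 it found 2371 genes, or 10.5% of those tested, and DESeq2 called 845 at its own adjusted p under 0.05. Adipocyte markers were present in each library, with Adipoq between 430 and 1141 CPM. The 12 skeletal muscle markers together made 42264 and 68164 CPM in aged against 11102 and 15398 CPM in young MFP, 12 of 12 were higher in aged MFP without overlap, and none was at 0 in any library (lowest value 1.91 CPM). The 6 adipocyte markers summed to 7889 and 6074 CPM in aged against 5541 and 5323 CPM in young MFP, and 6 of 6 were higher without overlap. Over all genes tested, 23.3% were higher without overlap. Aged replicate 2 was near the higher young library in Plin1 (1019 against 1007 CPM), Cidec (541 against 540) and Lpl (3230 against 3198). In Adipoq, Lep and Pparg it was well above both young libraries. Young replicate 1 stood apart in the B cell genes Cd79a (74.5 CPM, against at most 10.7 in the other libraries) and Ms4a1 (65.7 CPM, against at most 10.3). The third gene of that list, the plasma cell gene Jchain, went the other way, at 9.51 and 113 CPM in aged and 0.598 and 0.42 CPM in young MFP (log2 fold change 6.91, adjusted p = 0.392 from edgeR and 2.25e-09 from DESeq2). Young replicate 1 also had the highest sum of the 4 cell division markers, 90.2 CPM against 10.4 and 30.7 in aged MFP and 26.9 in young replicate 2. Its 5 mammary epithelial markers summed to 561 CPM, the lowest of the libraries, against 964 and 931 CPM in aged MFP and 1168 CPM in young replicate 2. The part of these differences in tissue makeup in the clock gene values was not tested.

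Of the 10 clock genes, 8 were higher and 2 lower in aged MFP by their log2 fold change. The median was 0.41, against -0.04 for all genes tested. Nr1d1, Dbp, Nr1d2 and Tef had an unadjusted p under 0.05, all higher in aged MFP. These are 4 of 10, where 7.24% of all genes tested were higher at that p. Without overlap between the ages, 5 were higher (Nr1d1, Dbp, Nr1d2, Tef and Cry2) and 1 was lower (Arntl), where 23.3% of all genes were higher and 22.8% lower without overlap. DESeq2 called 2 of the 10, Nr1d1 and Dbp, both higher in aged MFP, where it called 3.03% of its genes higher. The count at an unadjusted p under 0.05 changed with each library left out. Such fits leave 1 sample in an age, and no share of all genes at that p was taken there. They therefore cannot settle whether the count rested on single libraries. In those fits Nr1d1, Dbp, Nr1d2 and Tef stayed higher in aged MFP, with lowest log2 fold changes of 0.90, 0.57, 0.46 and 0.41. Per1, Per2 and Cry1 changed sign in some of them.

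**Figure D1:**
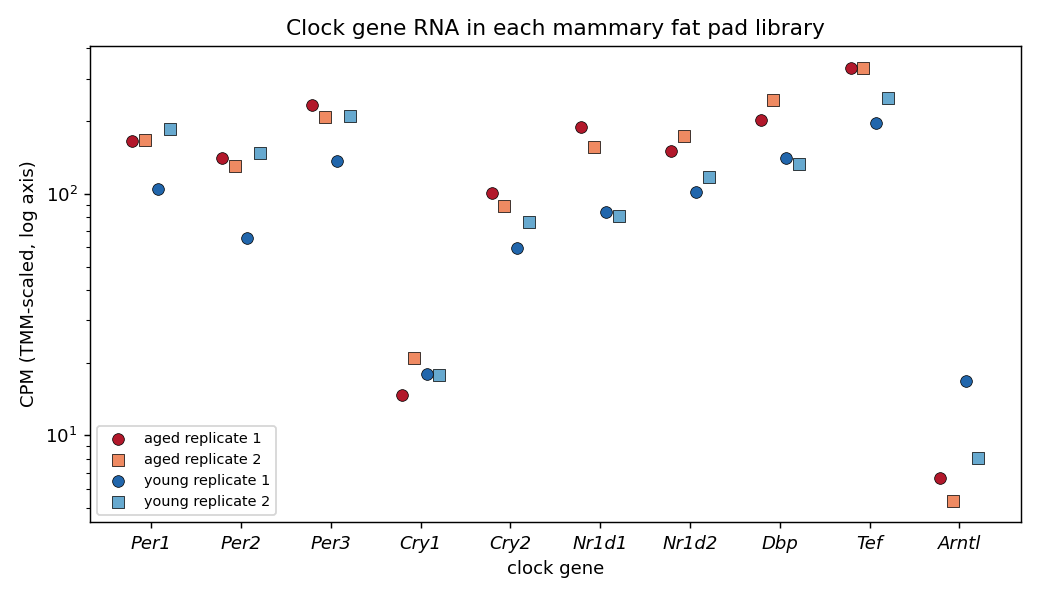
Levels of the 10 clock genes in the 4 libraries, as TMM-scaled CPM on a log axis, 1 point per library. Both aged points lie above both young points for Nr1d1, Nr1d2, Dbp, Tef and Cry2 and below them for Arntl, and young replicate 1 is the lowest for Per1, Per2 and Per3 and the highest for Arntl.

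Arntl (ENSMUSG00000055116, chromosome 7 of GRCm38, 113207465 to 113314126), the activator of the loop, was at 6.68 and 5.37 CPM in aged replicates 1 and 2 and at 16.7 and 8.09 CPM in young replicates 1 and 2. Both young samples were above both aged ones, but young replicate 1 had about as much more Arntl than young replicate 2 as the age means differed. The log2 fold change was -1.04 (standard error 0.43, 95% interval -2.21 to 0.13, adjusted p = 0.499 in edgeR's test). Without young replicate 1 it was -0.43. The cell division marker sum was highest in the same library as Arntl, and its part in the Arntl value was not tested. Gm45355, annotated on the other strand of Arntl, was at or under 0.0976 CPM in each library.

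Per1, Per2 and Per3, whose proteins enter the nucleus with CRY and close the loop, did not separate the ages. Per1 (chromosome 11, 69095217 to 69109960) was at 165 and 167 CPM in aged and 105 and 185 CPM in young MFP. Per2 (chromosome 1, 91415982 to 91459324) was at 141 and 130.5 CPM in aged and 65.3 and 147 CPM in young MFP. Per3 (chromosome 4, 151003652 to 151044665) was at 233 and 208 CPM in aged and 137 and 209 CPM in young MFP. For each of the 3 genes the lowest value was that of young replicate 1, and young replicate 2 lay within or above the aged values. Their log2 fold changes were 0.20 (standard error 0.31), 0.35 (0.42) and 0.35 (0.25), and the edgeR test gave adjusted p = 0.8, 0.734 and 0.593. Without young replicate 1 these became -0.16, -0.12 and 0.08, so that the sign of Per1 and Per2 turned. Per3 overlaps Camta1 on the same strand, and Camta1 was at 24.2 and 22.9 CPM in aged and 17.7 and 17.2 CPM in young MFP. The epithelial and skeletal muscle marker sums were lowest, and the cell division sum highest, in the library where the Per genes were lowest. The part of these sums in the Per values was not tested.

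The cryptochromes repress the ARNTL and CLOCK pair directly. Cry2 separated the ages and Cry1 did not, and the difference between them was not tested. Cry2 (chromosome 2, 92403646 to 92434043) was at 101 and 88.7 CPM in aged and 59.5 and 76.7 CPM in young MFP, without overlap. Its log2 fold change was 0.48 (standard error 0.18, 95% interval -0.03 to 0.98, adjusted p = 0.486 from edgeR), and it was 0.31 without young replicate 1. Cry1 (chromosome 10, 85131700 to 85185064), a gene that peaks later than Per in the cycle, was at 14.7 and 20.9 CPM in aged and 18.0 and 17.8 CPM in young MFP. The young values of Cry1 lay between the aged ones, and its log2 fold change was -0.01 (standard error 0.24, 95% interval -0.66 to 0.64, adjusted p = 0.987 from edgeR). Its sign turned to 0.21 without aged replicate 1.

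Nr1d1 and Nr1d2, the heme-binding receptors that repress Arntl, were higher in both aged samples. Nr1d1 (ENSMUSG00000020889, chromosome 11, 98767932 to 98775333, minus strand) was at 189 and 156 CPM in aged and 84.4 and 81.1 CPM in young MFP. The young samples nearly coincided, and the gap to the lower aged sample was wider than the spread within either age. The log2 fold change was 1.06 (standard error 0.16, 95% interval 0.63 to 1.49), a fold of 2.09, with an unadjusted p of 0.00218 and an adjusted p of 0.36 from edgeR, a value that 270 genes share. DESeq2 gave it an adjusted p of 0.000336. With each library left out the value stayed between 0.90 and 1.19. Thra, the thyroid hormone receptor gene that overlaps Nr1d1 on the other strand, was also higher in aged MFP without overlap, at 109 and 89.6 CPM against 57.8 and 74.8 CPM (log2 fold change 0.59). The libraries keep the strand, but whether the counting used it is not given in the sources used here.

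Nr1d2 (chromosome 14, 18204054 to 18239127) was at 151 and 174 CPM in aged and 102 and 117 CPM in young MFP. Its log2 fold change of 0.57 (standard error 0.16, 95% interval 0.14 to 0.99, adjusted p = 0.418 from edgeR) was smaller than that of Nr1d1, and the difference between the paralogs was not tested. No other gene overlaps Nr1d2 in the annotation used.

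Dbp and Tef, the PAR bZIP activators that act on D-boxes, were also higher in both aged samples. Dbp (ENSMUSG00000059824, chromosome 7, 45705088 to 45710203, plus strand) was at 203 and 246 CPM in aged and 141 and 132 CPM in young MFP. Its young samples differed by little, and young replicate 1 was the higher of them, unlike for the Per genes. The log2 fold change was 0.71 (standard error 0.16, 95% interval 0.27 to 1.16, adjusted p = 0.404 from edgeR and 0.0492 from DESeq2). It stayed between 0.57 and 0.83 with each library left out. Sphk2, a sphingosine kinase gene on the other strand that overlaps Dbp, went the other way, at 33.6 and 30.4 CPM in aged and 41.1 and 46.2 CPM in young MFP. Tef (chromosome 15, 81802421 to 81826863) was at 333 CPM in both aged samples and at 196 and 250.04 CPM in young MFP. Its log2 fold change was 0.58 (standard error 0.18, adjusted p = 0.454 from edgeR), and it was 0.41 without young replicate 1. The antisense genes at Tef and Cry2, Gm17597 and D930015M05Rik, were at or under 0.514 CPM.

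**Figure D2:**
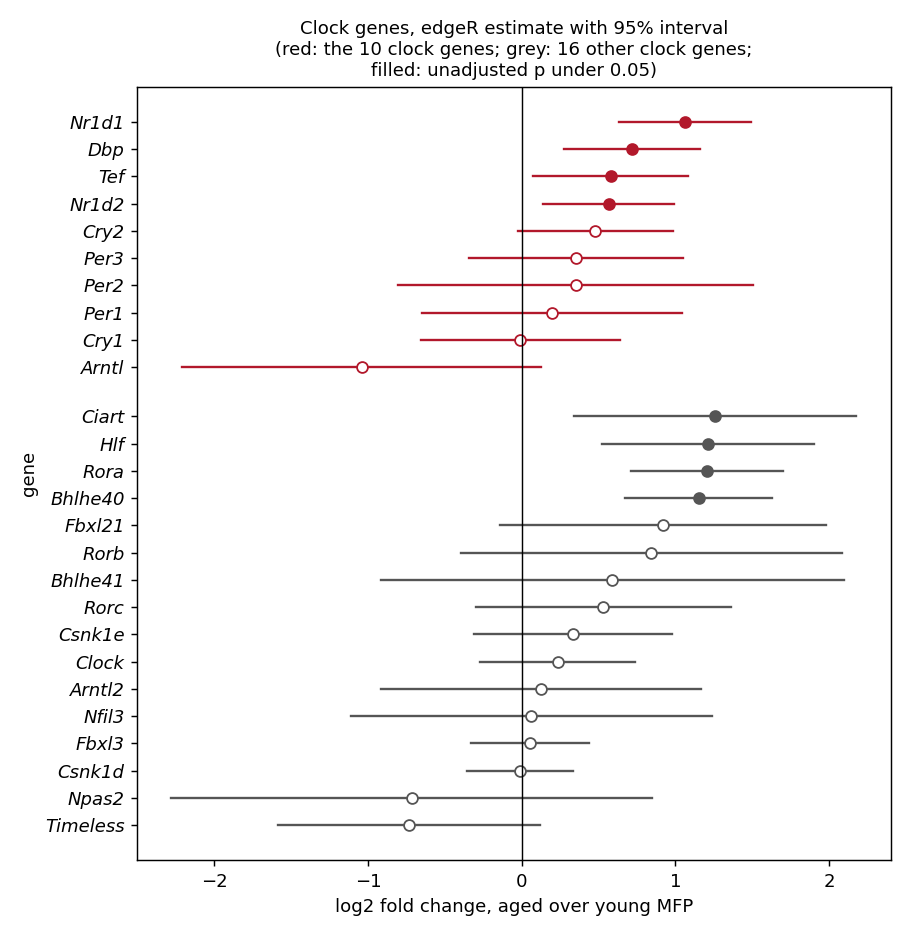
Log2 fold change (aged over young) from edgeR with its 95% interval, for the 10 clock genes (red) and 16 other clock genes (grey), filled where the unadjusted p is under 0.05. Nr1d1 leads the 10 at 1.06, Arntl is the lowest at -1.04, and the intervals of the Per genes span 0.

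Dbp and Per RNA were set against Arntl RNA within each library, where the scaling cancels. Such a ratio also rises where Arntl alone is lower, so it does not show by itself that Dbp or Per moved against Arntl. Dbp RNA exceeded Arntl RNA by 4.92 and 5.51 on the log2 CPM scale in aged and by 3.07 and 4.03 in young MFP. The aged samples lay above the young ones, by 1.66 on average. For Per1 over Arntl the values were 4.63 and 4.96 in aged and 2.65 and 4.51 in young MFP, for Per2 4.39 and 4.597 against 1.97 and 4.18, and for Per3 5.12 and 5.27 against 3.03 and 4.69. Each of the 4 ratios was higher in either aged library than in either young one, and lowest in young replicate 1. The differences of the age means were 1.21 for Per1, 1.42 for Per2 and 1.34 for Per3. Each ratio had p = 0.333 in an exact two-sided permutation test, and 0.333 after adjustment over the 4 ratios, which is the smallest p that 2 samples against 2 can give. The 4 ratios share Arntl and are not independent of each other. Without young replicate 1 the difference for Dbp over Arntl was 1.19, and with each of the other libraries left out it was between 1.37 and 2.14. The Per ratios rested more on that library, as without it the differences were 0.28 for Per1, 0.31 for Per2 and 0.51 for Per3. Without young replicate 2 they were 2.14, 2.53 and 2.17.

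**Figure D3:**
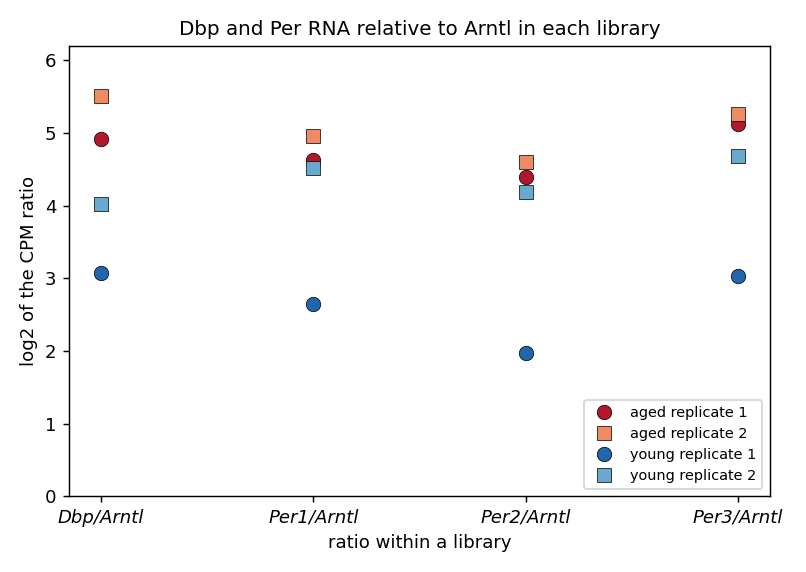
Log2 ratio of Dbp, Per1, Per2 and Per3 CPM to Arntl CPM within each library, 1 point per library. Aged points lie above young points in each ratio, and young replicate 2 lies nearer to the lower aged sample than to young replicate 1 in each.

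The 7 genes that the clock drives in the phase opposed to Arntl (Per1, Per2, Per3, Nr1d1, Nr1d2, Dbp and Tef) had a median log2 fold change of 0.57, against -1.04 for Arntl. Set pair by pair, young replicate 1 had more Arntl than either aged sample, by 1.32 and 1.63 on the log2 scale, and less of 7 of the 7 genes than each of them. Against young replicate 2, aged replicate 1 had 0.28 less Arntl and more of 5 of the 7 genes, and aged replicate 2 had 0.59 less Arntl and more of 4 of the 7. The full opposition was therefore seen in the pairs of an aged sample with young replicate 1. The pairs of an aged sample with young replicate 2 showed it in Nr1d1, Nr1d2, Dbp and Tef but not in Per1 and Per2. Per3 differed by 0.16 and -0.01 in the latter pairs.

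Samples of the same age also differed. Of the 7 genes, 5 went opposite to Arntl between the young samples and 3 between the aged samples. Between the young samples, replicate 1 had 1.04 more Arntl on the log2 CPM scale than replicate 2 and less Per1, Per2 and Per3, with differences of -0.82, -1.17 and -0.61. The Nr1d1 and Dbp RNAs were nearly level in that pair, with differences of 0.06 and 0.09. Across all genes tested, 20.7% were apart by at least 1 on that scale between the young samples and 8.61% between the aged samples. Between the aged samples, replicate 1 had 0.31 more Arntl, less Dbp (-0.28), less Nr1d2 (-0.20) and more Nr1d1 (0.28), while the Per genes were within 0.17 of each other. Arntl together with Per set young replicate 1 apart from the other 3 libraries, while Nr1d1, Dbp, Nr1d2 and Tef set the ages apart.

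**Figure D4:**
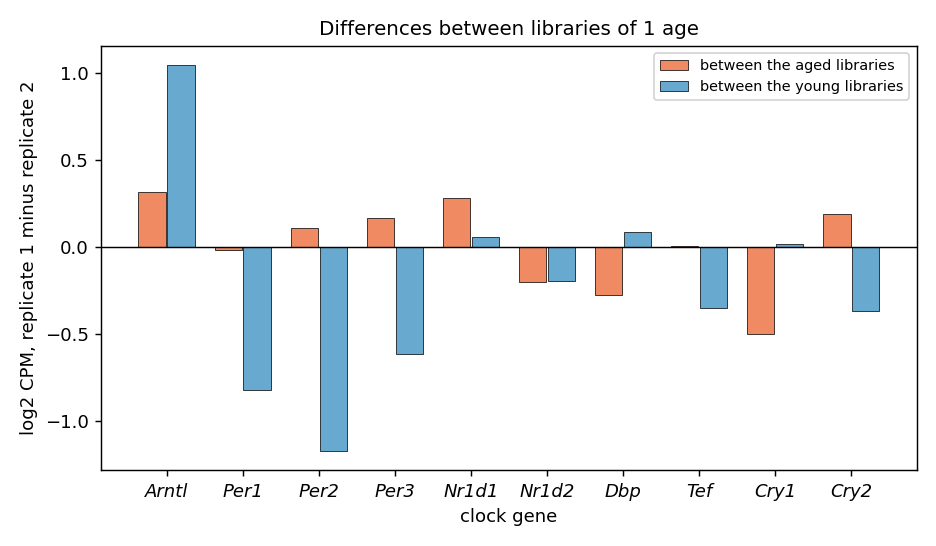
Difference in log2 CPM between replicate 1 and replicate 2 of the same age, for the aged (orange) and young (blue) libraries, 1 bar per gene. Arntl and the Per genes point in opposite directions between the young libraries, at 1.04 and between -0.61 and -1.17, and Nr1d1 and Dbp are close to 0 there.

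The same fit covered 16 further genes of the clock. Of these, 0 were called by edgeR, and 4 had an unadjusted p under 0.05, all higher in aged MFP. The median log2 fold change of the 16 was 0.43, with 13 positive and 3 negative, and without overlap 6 were higher and 1 was lower. Over all genes tested, 7.24% were higher at that p, and 23.3% were higher and 22.8% lower without overlap. Hlf, the third PAR bZIP gene beside Dbp and Tef, was at 78.5 and 60.8 CPM in aged and 25.0 and 35.2 CPM in young MFP (log2 fold change 1.21, adjusted p = 0.384 from edgeR and 0.00924 from DESeq2). Rora, which activates Arntl at RORE elements, was at 132 and 159 CPM in aged and 57.0 and 69.4 CPM in young MFP (1.21, adjusted p = 0.36 from edgeR and 0.000325 from DESeq2). The activator Rora and the repressors Nr1d1 and Nr1d2 of the same element were thus all higher in aged MFP.

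Bhlhe40 (DEC1), an E-box repressor, was at 219 and 200 CPM in aged and 83.6 and 105 CPM in young MFP (log2 fold change 1.15, adjusted p = 0.36 from edgeR and 0.000337 from DESeq2). Ciart, a repressor of the ARNTL and CLOCK pair whose window holds 3 E-boxes, was at 7.97 and 12.4 CPM in aged and 4.83 and 3.67 CPM in young MFP (1.26, adjusted p = 0.417 from edgeR and 0.0332 from DESeq2). These 4 genes separated the ages in both samples. Bhlhe41 (DEC2), the paralog of Bhlhe40, was at 236 and 239 CPM in aged and 79.5 and 237 CPM in young MFP, so that its young replicate 1 alone was low, as for the Per genes.

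Clock, Npas2 and Nfil3 were set beside Arntl as genes of its side of the loop. Clock, the partner of ARNTL, was at 101 and 90.0 CPM in aged and 70.7 and 91.7 CPM in young MFP. Nfil3, a repressor at D-boxes whose window also holds the RORE core, was at 11.4 and 11.5 CPM in aged and 6.87 and 15.1 CPM in young MFP. Npas2, the other partner of ARNTL, was at 1.11 and 0.561 CPM in aged and 0.939 and 1.82 CPM in young MFP. All of these overlapped between the ages. Their log2 fold changes were 0.23 for Clock, 0.06 for Nfil3 and -0.72 for Npas2 (standard error 0.57), so that Npas2 had the sign of Arntl. Of the 16, only Timeless, which also serves DNA replication, was lower in aged MFP without overlap, with 10.8 and 10.9 CPM against 22.7 and 13.5 CPM. Its highest value was in young replicate 1, the library with the highest cell division markers, and their part in the Timeless value was not tested.

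Of 7 output genes that clocks drive in many tissues, 0 were called by edgeR, 6 had a positive log2 fold change, and 2 had an unadjusted p under 0.05. Both of these were higher in aged MFP, where 7.24% of all genes tested were higher at that p. Without overlap 4 were higher and 0 lower, where 23.3% of all genes were higher and 22.8% lower. Usp2, a ubiquitin protease, was at 58.5 and 99.97 CPM in aged and 26.3 and 41.7 CPM in young MFP (log2 fold change 1.22, adjusted p = 0.445 from edgeR). Klf9, also a glucocorticoid target, was at 172 and 137 CPM in aged and 73.2 and 91.5 CPM in young MFP (0.90, adjusted p = 0.398 from edgeR and 0.0367 from DESeq2). Both separated the ages. Nampt, which makes the NAD precursor NMN, was at 104 and 122 CPM against 85.4 and 92.1 CPM, and Wee1, a cell cycle kinase, overlapped between the ages.

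Per1 also responds to glucocorticoids, so 7 genes of that response were read beside it. None was called by edgeR (0 of 7), DESeq2 called 0, and 1 had an unadjusted p under 0.05, where 10.5% of all genes tested did. That gene, the metallothionein Mt1, was at 22.2 and 18.4 CPM in aged and 14.6 and 12.6 CPM in young MFP, and Mt2 had the largest log2 fold change of the list, 0.77 (adjusted p = 0.5 from edgeR). Fkbp5, Tsc22d3 and Sgk1 overlapped between the ages. Dusp1 was lower without overlap, at 30.4 CPM in both aged samples against 36.3 and 34.2 CPM in young MFP. Without overlap 2 of the 7 were higher and 1 was lower, where 23.3% of all genes were higher and 22.8% lower. Zbtb16 was at 165 and 99.5 CPM in aged and 47.8 and 165 CPM in young MFP, lowest in young replicate 1 like the Per genes.

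Levels were set between genes per kilobase of exon. On this scale of CPM per kilobase, averaged over the 4 libraries, Dbp was the highest of the 10 clock genes at 60.3, followed by Nr1d1 (41.5), Tef (35.3), Per1 (27.7), Nr1d2 (25.2), Per2 (20.7), Per3 (20.5), Cry2 (12.9), Cry1 (5.34) and Arntl (1.22). Neighbours in this order overlapped in their ranges over the 4 libraries, except Cry2 with Cry1 and Cry1 with Arntl, which were apart. Arntl lay between 0.713 and 2.22 CPM per kilobase and Dbp between 44.3 and 82.1 CPM per kilobase. In each of the 4 libraries Dbp was the highest of the 10 and Arntl the lowest.

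Outside the gene lists, the profiles nearest to those of Arntl and Dbp were found by the distance between log2 CPM values centred over the 4 libraries. Nearest to Dbp was Cdr2, with a distance of 0.0234, at 30.2 and 36.9 CPM in aged and 21.3 and 19.6 CPM in young MFP, then Gm48693 and Taf9b. Nearest to Arntl were Gm49435, Gm16675 and Ido2, with distances between 0.0933 and 0.11. Gm16675 was at 2.30 and 1.94 CPM in aged and 5.86 and 2.67 CPM in young MFP. With 4 libraries such likeness is common, as 104 genes lay within 0.2 of Dbp and 32 within 0.2 of Arntl.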

How the data were processed

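RNA of whole mammary fat pad was sequenced as strand-specific, rRNA-depleted libraries. What the authors deposited is an unnormalized, unfiltered count for each gene and library. The submitters' processing notes name featureCounts, R 3.6.1 and GRCm38, while the aligner and strand setting are not given in the sources used here. Here, genes were kept by filterByExpr (22485 of 55487), scaled by TMM and tested with edgeR 4.0.16 (glmQLFit, glmQLFTest; R 4.3.3) with age as the only term. Standard errors are the fold change over the square root of F, and log2 CPM uses a prior count of 2. DESeq2 1.42.0, the tool of the study's methods, was an alternative, as were RLE and total count scaling, no filter, the replicate block and leaving out each library. The clock genes and lists, and the rule naming genes, were chosen with earlier results of these data known. The rule took an unadjusted p under 0.05, or the 2 largest changes of a list, and set Clock, Npas2 and Nfil3 beside Arntl. Bhlhe41, Timeless, Nampt, Wee1, Fkbp5, Tsc22d3, Sgk1, Dusp1, Zbtb16, Plin1, Cidec, Lpl and the genes overlapping a clock gene were named after their values were seen. p-values measure the spread between these samples only. Coordinates and exon lengths come from GENCODE M21 (GRCm38), which holds 55141 of the gene identifiers. Code was tested on simulated counts.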

Additional observations from a re-analysis of the deposited data

How the results depend on the processing

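Most comparisons of a result with an alternative were labelled the same (201 of 213, the Per to Arntl ratios being added after seeing the data). For a count this meant an equal or similar number, and for a ratio the same sign. For a gene's fold change it meant the same sign and side of the threshold, and for the median of the 7 genes a shift within its spread. A fold change could thus shrink and keep the label, as that of Arntl did from -1.04 to -0.43 without young replicate 1. The ratios cannot change with a block and hardly with scaling, so those comparisons were fixed in advance. With DESeq2, 845 genes were called between the ages, where edgeR called 0. Among them were 2 of the 10 clock genes, 4 of the 16 other clock genes and 1 of the 7 output genes. These listed genes were all higher in aged MFP, where DESeq2 called 3.03% of its genes higher. The cause of the difference between the tools was not tested. With each library left out, where the lone sample of an age is assumed to vary like the others, the clock genes with an unadjusted p under 0.05 numbered between 1 and 9, against 4. The log2 fold change then ranged from -0.16 to 0.68 for Per1, from -0.12 to 1.06 for Per2 and from -0.28 to 0.21 for Cry1, which changes their sign. Scaling by total counts only moved the median of all genes by -0.18, and the median of the 7 genes opposed to Arntl from 0.57 to 0.38. Same-numbered samples did not deviate together (correlation -0.48 across genes). With 2 samples per age, this also means that differently numbered samples of the ages deviated together to the same degree. The replicate block left 0 genes called and 3 clock genes with an unadjusted p under 0.05. A crossed block, which pairs differently numbered samples and was added after seeing the data, left 0 called and 5 such clock genes. Neither block changed a call, and no share of all genes at an unadjusted p under 0.05 was taken in the block fits.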
